A study of Mus musculus with 70 samples.

Results

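Interferon-stimulated genes are the genes that a cell switches on when interferon binds its receptor, and most of their products restrict viruses or intracellular microbes. A list of 36 such genes was followed in the dorsal root ganglion, where the cell bodies of sensory neurons lie, in 9 mouse strains with and without a nerve cut. The genes were chosen by symbol: 29 that type I interferon is known to induce strongly (called type I-like here), 6 GTPases of the IRG and GBP families that interferon-gamma is known to induce, and Irf1, which responds to both and was kept apart. Of the 36 genes, 35 had at least 1 probe, with 56 probes in all out of 25697 on the array. Ifi44 had none. After removal of probes near background, 29 of the 36 genes remained (23 type I-like, 5 GTPases and Irf1) among 11815 genes tested.

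RNA came from axotomised ganglia (labelled AX5D, taken to mean 5 days after the cut) and from naive ganglia of the strains CAST, C3H, DBA, WSB, AJ, NZO, NOD, 129 and C57. CAST is CAST/Ei according to the series title, a strain derived from wild mice; the full names of the others were not given in the sources used here. Each sample pooled 6 ganglia from 3 mice, and the labels call the replicates biologically distinct. There were 70 arrays, 4 per strain and treatment, except 3 and 3 in AJ.

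Type I interferons bind the receptor IFNAR, whose kinases JAK1 and TYK2 activate transcription factors that include STAT2. STAT2 and IRF9 are parts of the complex ISGF3, which binds the interferon-stimulated response element (ISRE) in promoters of genes such as Isg15 and the Ifit family. Interferon-gamma acts through JAK1 and JAK2, on genes with a GAS element, and through IRF1, which it induces. In ganglia, neurons, satellite glia, Schwann cells and macrophages can all respond to interferon.

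Promoters are shown for Isg15 and Ifit3 as type I-like members, Igtp and Irgm2 as GTPases, and Irf1, because their windows hold the elements just named. RefSeq promoters (build GRCm38.p6, 250 bases before to 50 after the start) were listed for 26 of the 36 genes. Each window is 300 bases, 5′ to 3′ on the strand of the gene, and capitals mark GAAANNGAAA (the ISRE core) or TTCNNNGAA (GAS), searched on both strands. The windows are chr4:156200769-156201068 on the minus strand for Isg15, chr19:34583279-34583578 on the plus strand for Ifit3, chr11:58199306-58199605 on the plus strand for Igtp, chr11:58214727-58215026 on the plus strand for Irgm2 and chr11:53769764-53770063 on the plus strand for Irf1.
Isg15: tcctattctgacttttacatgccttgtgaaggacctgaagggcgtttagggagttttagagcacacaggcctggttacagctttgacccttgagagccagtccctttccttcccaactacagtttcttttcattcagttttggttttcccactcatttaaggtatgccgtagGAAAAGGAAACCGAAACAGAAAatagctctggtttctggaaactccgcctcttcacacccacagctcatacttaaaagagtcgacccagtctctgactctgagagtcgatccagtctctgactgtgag
Ifit3: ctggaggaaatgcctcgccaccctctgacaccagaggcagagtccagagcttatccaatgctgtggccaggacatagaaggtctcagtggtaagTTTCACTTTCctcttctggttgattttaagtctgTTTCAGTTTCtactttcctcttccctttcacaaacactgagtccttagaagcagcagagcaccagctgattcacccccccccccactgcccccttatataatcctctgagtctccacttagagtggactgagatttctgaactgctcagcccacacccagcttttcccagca
Igtp: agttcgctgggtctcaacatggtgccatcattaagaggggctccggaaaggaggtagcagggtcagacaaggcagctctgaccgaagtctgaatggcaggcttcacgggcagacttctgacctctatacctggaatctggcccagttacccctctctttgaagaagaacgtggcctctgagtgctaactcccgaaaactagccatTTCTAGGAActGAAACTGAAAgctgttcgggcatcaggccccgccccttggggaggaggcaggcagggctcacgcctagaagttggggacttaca
Irgm2: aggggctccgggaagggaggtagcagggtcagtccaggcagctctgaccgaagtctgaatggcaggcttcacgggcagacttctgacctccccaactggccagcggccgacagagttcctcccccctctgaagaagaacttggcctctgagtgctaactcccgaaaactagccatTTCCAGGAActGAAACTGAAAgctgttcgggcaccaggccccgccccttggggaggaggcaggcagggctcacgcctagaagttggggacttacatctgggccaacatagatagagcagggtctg
Irf1: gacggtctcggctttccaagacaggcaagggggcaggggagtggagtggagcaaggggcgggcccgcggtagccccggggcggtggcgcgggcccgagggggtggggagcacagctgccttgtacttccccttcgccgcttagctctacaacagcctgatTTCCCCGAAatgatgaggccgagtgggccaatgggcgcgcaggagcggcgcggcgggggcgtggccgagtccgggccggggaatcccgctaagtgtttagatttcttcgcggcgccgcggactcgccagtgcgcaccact
Isg15 held 3 overlapping ISRE cores, whose first bases lay at -78, -72 and -66 from the start. Ifit3 held 2, both on the opposite strand, at -156 and -122. Igtp had a GAS at -45 followed by an ISRE core at -34, and Irgm2 had the same order of letters with the GAS at -75 and the ISRE core at -64. Irf1 had a GAS at -90 and no ISRE core.

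Among the members with a listed promoter, the ISRE core was present in 11 of 20 type I-like genes and in 5 of 5 GTPases, against 3.99% of 27025 genes with a promoter in the same table. GAS was present in 6 of 20 type I-like genes, 2 of 5 GTPases and Irf1, against 9.55% of all genes. Neither motif was found in the windows of Irf7, Irf9, Oasl1, Oasl2, Trim25, Xaf1 and Ifi44. In Bst2 the GAS letters at -136 overlapped an ISRE core at -130. No promoter was listed for Usp18, Mx1, Mx2, Oas2, Ifi27l2a, Dhx58, Rtp4, Zbp1, Parp14 and Iigp1.

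The raw probe intensities ran from 163.65 to 53947, with array medians of 253 to 392, and 13147 to 14721 probes per array were above background by the detection p-value. The injury label was checked with 7 genes that sensory neurons are known to raise after axotomy, such as Atf3 and Sprr1a: all 7 were higher in axotomised ganglia in each of the 9 strains. The 7 sensory neuron markers measured were above background on nearly all arrays. On average over strains 4 of them were called lower and 2 higher (median -0.08). Levels below are log2 intensities after background correction and quantile normalisation. A response is the log2 difference, axotomised minus naive, and a gene was called at an adjusted p below 0.05 (limma, Benjamini-Hochberg over all 11815 genes).

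On average over the 9 strains, interferon-stimulated genes were higher after axotomy. Of the 29 measured, 26 were called and all 26 were higher, where 61.7% of all genes were called in either direction and 28.1% were called higher. The median response was 0.66 for the type I-like genes and 1.17 for the GTPases, beside -0.03 for all genes tested. Of the 29, 5 (Irf7, Mx1, Oas2, Oasl1 and Rtp4) were above background on fewer than 5 of the 35 naive arrays, so that they passed the filter mostly through axotomised arrays. Their differences are bounds, and without them 21 of 24 were called higher and the type I-like median was 0.73. Among those 24 the largest mean responses were those of Usp18 (1.53 ± 0.10 SE) and Igtp (1.53 ± 0.07). Usp18 is the protease that removes ISG15 from proteins and damps IFNAR signalling. Igtp is a GTPase with a part in defence against microbes held in vacuoles. Irgm2 followed at 1.24 and Mx2 at 1.22. Eif2ak2 (PKR, a kinase activated by double-stranded RNA; 0.00), Trim25 (0.02) and Zbp1 (0.14, adjusted p = 0.0602, limma) were not called. As these are whole ganglia, more cells of a type and more RNA per cell cannot be told apart.

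The strains differed. Of the 23 type I-like genes, 21 were called higher in CAST and 20 in C3H, and between 1 and 11 in the other strains. Of the 5 GTPases, between 2 and 5 were called in every strain but C57, which had 1. With CAST left out of the mean the type I-like median was 0.39, and Ifit2 (0.08, adjusted p = 0.318, limma) and Rtp4 (0.11, adjusted p = 0.239) were no longer called.

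Within strains, the number of members called higher was 26 of 29 in CAST (14.4% of all genes were called higher) and 26 in C3H (12.8%). It was 17 in DBA (16.5% of all genes higher), 15 in WSB (18.4%), 9 in NZO (14.4%), 9 in NOD (11.7%) and 9 in 129 (15%). AJ had 7 (10.3%) and C57 had 2 (10.8%). The only member called lower in any strain was Eif2ak2 in 129, at -0.38 (16.8% of all genes were lower there). In C57 the 2 were Irgm1 (0.34) and Oas2 (1.08), and Oas2 passed the filter mostly through axotomised arrays. So few calls cannot be told apart from the share of all genes called higher in C57.

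**Figure D1:**
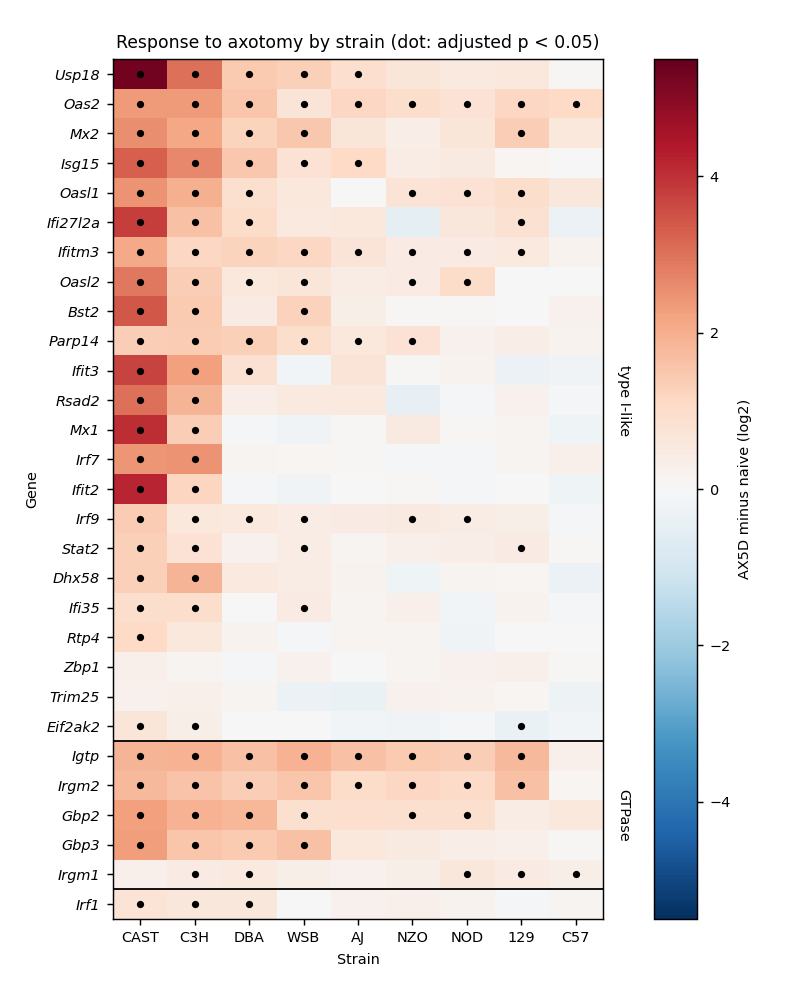
Heat map of the response (axotomised minus naive, log2, colour) of the 29 measured genes (rows, type I-like above, then GTPases and Irf1) in 9 strains (columns), with a dot where the adjusted p is below 0.05. CAST and C3H are red down nearly the whole column with 26 calls each, C57 has 2 calls, and Igtp and Irgm2 are called in 8 strains.

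The median response of the type I-like genes was 2.41 in CAST, 1.39 in C3H, 0.54 in DBA, 0.44 in WSB, 0.31 in AJ, 0.26 in NZO, 0.23 in NOD, 0.20 in 129 and -0.02 in C57. The median response of the GTPases spanned less: 1.87 in CAST, 1.55 in C3H, 1.52 in WSB, 1.43 in DBA, 0.92 in AJ, 0.89 in NZO, 0.87 in NOD, 0.43 in 129 and 0.29 in C57. The 2 orders differ in the places of WSB and DBA, both of which had a GTPase median near that of C3H and a type I-like median below it. Which subset had the higher median in CAST depended on the processing. Without background correction it was 1.08 for the type I-like genes and 1.59 for the GTPases, and with no filter 1.73 and 1.83. The smaller span of the GTPases is therefore given for the main processing only. Without the 5 dim genes the type I-like median was 2.32 in CAST (16 of 18 called) and 1.36 in C3H (16 of 18). By gene, Oas2 was called in all 9 strains, and Ifitm3, Igtp and Irgm2 in 8, the exception being C57 for each. Ifit2, Irf7, Mx1 and Rsad2 were called in CAST and C3H alone, Rtp4 in CAST alone, and Trim25 and Zbp1 in none (for both, 0 of 9 strains also at an unadjusted p below 0.05, limma). Of these, Oas2, Irf7, Mx1 and Rtp4 passed the filter mostly through axotomised arrays, so their calls are no support.

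Among the transcription factors, Irf7 drives the second wave of interferon production. Its level was 8.21, 8.16, 6.68 and 7.30 in axotomised CAST and 5.06, 4.83, 5.13 and 5.69 in naive CAST. In C3H it was 7.50, 8.91, 8.47 and 7.30 in axotomised ganglia and 5.86, 5.26, 5.40 and 5.72 in naive ganglia. All axotomised arrays of both strains lay above their naive arrays, and no naive array of either was above background. The difference was therefore at least 3.03-fold in CAST and at least 4.38-fold in C3H. Here "at least" sets the axotomised mean against the lowest signal that was above background on each naive array, or the probe's own signal where that was higher. In the other 7 strains Irf7 was above background on 2 of 27 axotomised arrays and 0 of 27 naive arrays, so the gene passed the filter through the axotomised arrays of CAST and C3H and its p-values are no support.

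Irf9 and Stat2, parts of ISGF3, were measured on every array. Irf9 was at 10.81, 10.70, 9.95 and 10.49 in axotomised CAST, against 8.94, 9.33, 9.04 and 9.12 in naive CAST. For C3H, Irf9 was at 9.94, 10.45, 10.29 and 9.70 after axotomy, against 9.58, 9.43, 9.53 and 9.47 in naive ganglia. The groups did not overlap in either strain, and the response was 1.38 ± 0.15 SE in CAST (adjusted p = 4.42e-12, limma) and 0.59 ± 0.15 in C3H (adjusted p = 0.000988). In the other 7 strains, axotomised arrays ran from 9.10 to 10.03 (median 9.49, n = 27) and naive arrays from 8.42 to 9.64 (median 9.12, n = 27), and Irf9 was called in 6 strains in all. Stat2 was at 10.74, 10.57, 9.88 and 9.97 in axotomised CAST, against 8.91, 9.17, 8.85 and 9.01 in naive CAST. In C3H the Stat2 levels were 9.73, 9.99, 10.05 and 9.27 after axotomy and 9.12, 8.81, 9.13 and 8.81 in naive ganglia. Stat2 rose by 1.30 in CAST and 0.79 in C3H, with no overlap in either. It was also called in 129 (0.44) and WSB (0.41), and axotomised arrays of the other 7 strains (8.73 to 9.51, median 9.10) overlapped their naive arrays (8.44 to 9.27, median 8.77).

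The ISG15 system tags proteins with the ubiquitin-like Isg15 and clears the tag with Usp18. Usp18 was at 12.16, 12.15, 11.34 and 11.39 in axotomised CAST, against 6.13, 7.17, 6.46 and 6.04 in naive CAST. The C3H levels were 10.78, 12.15, 12.02 and 10.77 after axotomy and 8.59, 8.42, 8.12 and 8.40 in naive ganglia. The axotomised levels of the 2 strains overlapped each other, while naive CAST was the lower of the 2. The fold was 39.7 in CAST (log2 response 5.31 ± 0.29 SE, adjusted p = 4.04e-24, limma) and 8.28 in C3H (3.05 ± 0.29, adjusted p = 1.32e-13). Over the other 7 strains, axotomised arrays spanned 7.14 to 9.22 (median 8.17, n = 27) and naive arrays 6.25 to 9.07 (median 7.27, n = 27). DBA (1.42), WSB (1.29) and AJ (0.91) were also called for Usp18, and C57 was at 8.71 ± 0.37 after axotomy and 8.67 ± 0.30 naive (SD, n = 4 each).

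Isg15 was at 10.28, 10.27, 8.93 and 9.14 in axotomised CAST, against 6.69, 6.18, 6.46 and 6.23 in naive CAST. C3H had 9.56, 11.07, 10.90 and 9.50 after axotomy, against 6.94, 7.84, 7.82 and 7.86 in naive ganglia. Again the axotomised arrays of each strain lay well above its naive arrays. Isg15 rose 9.62-fold in CAST (3.27 ± 0.28 SE on the log2 scale, adjusted p = 4.95e-15, limma) and 6.25-fold in C3H (2.64 ± 0.28, adjusted p = 1.25e-11), and by 1.5 in DBA, 1.11 in AJ and 0.78 in WSB. Trim25, which ubiquitinates the sensor RIG-I, was above background on 19 axotomised and 19 naive arrays and was called in no strain.

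The IFIT proteins bind foreign RNA at its 5′ end or slow its translation. Ifit2 was at 11.90, 12.33, 10.87 and 10.87 in axotomised CAST, against 7.80, 7.71, 6.70 and 7.03 in naive CAST. In C3H it was at 10.45, 11.77, 11.74 and 10.18 after axotomy, against 9.99, 9.71, 9.81 and 9.90 in naive ganglia. Both strains rose without overlap, CAST by 4.18 ± 0.23 SE (adjusted p = 3.06e-24, limma) and C3H by 1.18 ± 0.23 (adjusted p = 2.51e-05). Elsewhere Ifit2 was not called, at 9.17 to 10.25 after axotomy (median 9.64, n = 27) and 9.13 to 10.40 naive (median 9.73, n = 27), with responses of -0.25 to 0.05 in the 7 strains. Ifit3 was at 13.24, 13.46, 12.01 and 12.56 in axotomised CAST, against 9.31, 9.38, 8.83 and 8.88 in naive CAST. In C3H the Ifit3 levels were 12.43, 13.59, 13.63 and 12.25 after axotomy and 10.65, 10.68, 10.75 and 10.81 in naive ganglia. Ifit3 rose by 3.72 in CAST and 2.26 in C3H without overlap, and it was also called in DBA (0.84). Ifit1 was above background on no array.

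The OAS proteins sense double-stranded RNA and activate RNase L. Oas2 was the member called most widely, but it is one of the dim genes and its p-values are no support. Its level was 8.14, 7.37, 7.08 and 7.34 in axotomised CAST, against 5.28, 4.86, 5.13 and 5.33 in naive CAST. In C3H Oas2 was at 7.69, 8.39, 8.38 and 7.52 after axotomy, against 6.01, 5.45, 5.44 and 5.71 in naive ganglia. It was above background on 30 of 35 axotomised and 2 of 35 naive arrays, so the naive level is a bound in most strains, and the CAST difference was at least 2.82-fold. Oasl1, which holds back translation of Irf7, was above background on 28 axotomised and 4 naive arrays, and its difference was at least 3.70-fold in CAST and at least 2.72-fold in C3H. Oasl2 was at 12.22, 12.10, 11.52 and 11.50 in axotomised CAST, against 9.05, 8.82, 9.25 and 8.62 in naive CAST. In C3H the Oasl2 levels were 12.22, 11.84, 12.23 and 11.59 after axotomy and 10.79, 10.53, 10.61 and 10.59 in naive ganglia. Oasl2 rose by 2.90 in CAST and 1.34 in C3H, and in NOD, where 5 of 23 type I-like genes were called, it rose by 1.01. Oas1a and Oas3 did not pass the filter.

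Mx1 and Mx2 are dynamin-like GTPases that trap viral ribonucleoproteins, and many inbred laboratory strains are known to carry a defective Mx1. Mx1 was at 9.55, 10.39, 8.94 and 8.97 in axotomised CAST, against 5.12, 5.43, 5.79 and 5.20 in naive CAST, where no array was above background. The difference in CAST was at least 11.1-fold. In C3H, Mx1 was at 5.96, 6.94, 7.68 and 5.23 after axotomy, 3 of the 4 above background, against 4.89, 5.13, 4.96 and 5.41 in naive ganglia, none above it. The lowest axotomised C3H array lay inside the naive range, and the difference was at least 1.45-fold. NZO was the remaining strain with Mx1 above background on all 4 axotomised arrays (6.26 ± 0.16 SD), and in DBA, WSB, AJ, NOD, 129 and C57 it was not well above background on any array. Mx2 was at 13.61, 13.67, 13.28 and 13.19 in axotomised CAST, against 10.86, 11.07, 10.93 and 10.66 in naive CAST. In C3H the Mx2 levels were 8.78, 10.28, 9.96 and 8.55 after axotomy and 7.31, 7.36, 7.09 and 7.36 in naive ganglia. Mx2 rose by 2.56 ± 0.25 SE in CAST and 2.12 ± 0.25 in C3H, and even naive CAST lay above every array of the other 8 strains.

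Ifitm3, Bst2 and Rsad2 act at membranes: Ifitm3 blocks fusion of viruses with the endosome, Bst2 (tetherin) holds virions on the cell surface, and Rsad2 (viperin) makes a chain-terminating nucleotide. Ifitm3 was at 13.93, 13.78, 13.35 and 13.23 in axotomised CAST, against 11.52, 11.62, 11.56 and 11.28 in naive CAST. In C3H it was at 13.93, 14.43, 14.09 and 13.92 after axotomy, against 12.88, 13.03, 12.77 and 13.03 in naive ganglia. The spread within a group was small for Ifitm3, and it was called in 8 strains, with responses of 2.08 in CAST, 1.23 in DBA, 1.16 in C3H, 1.13 in WSB and 0.46 to 0.70 in AJ, 129, NZO and NOD. Bst2 averaged 9.10 ± 0.61 in axotomised CAST and 5.70 ± 0.16 in naive CAST (SD, n = 4 each), with 1 of 4 naive arrays above background. Its fitted response in CAST was 3.41, against a naive level that was mostly not measured above background. In C3H, Bst2 rose by 1.43 and in WSB it was called too. Rsad2 averaged 11.93 ± 0.95 in axotomised CAST and 8.92 ± 0.40 in naive CAST, and 12.02 ± 1.06 in axotomised C3H and 10.14 ± 0.14 in naive C3H (SD, n = 4 each). In the other 7 strains Rsad2 was not called.

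Ifi27l2a, a small mitochondrial protein gene, set itself apart by its starting level. It was at 9.79, 9.70, 9.19 and 9.22 in axotomised CAST, against 6.03, 5.05, 5.54 and 6.13 in naive CAST, where 2 of 4 arrays were above background. C3H ganglia were at 12.16, 11.94, 12.04 and 11.92 after axotomy, against 10.16, 10.67, 10.44 and 10.33 in naive ganglia. The fitted response was 3.79 ± 0.28 SE in CAST, where the naive level was above background on only those 2 arrays, and 1.61 ± 0.28 in C3H. In NZO it averaged 11.85 ± 0.16 after axotomy and 12.40 ± 0.08 naive (SD, n = 4 each), a difference of -0.55 that was not called. Naive CAST had the lowest level of the 9 strains for this gene, and axotomised CAST remained below naive NZO.

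Of the sensors, Dhx58 (LGP2) rose by 1.88 in C3H and 1.29 in CAST and was not called elsewhere, while Eif2ak2 rose by 0.68 in CAST and 0.31 in C3H and fell by 0.38 in 129. Ifih1 (MDA5) did not pass the filter and Zbp1 was called in no strain. Parp14, an ADP-ribosyltransferase, was called in 6 strains, with 1.39 in C3H, 1.36 in CAST and 1.32 in DBA. Ifi35 rose by 0.96 in both CAST and C3H. Rtp4, which was above background on 13 of 70 arrays, rose in CAST, where the difference was at least 1.34-fold. Xaf1 did not pass the filter.

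The GTPases of the IRG family (Igtp, Irgm1, Irgm2, Iigp1) and GBP family (Gbp2, Gbp3) take part in defence against parasites or bacteria held in vacuoles. Igtp averaged 11.47 ± 0.38 in axotomised CAST and 9.60 ± 0.30 in naive CAST, and 11.42 ± 0.51 in axotomised C3H and 9.51 ± 0.13 in naive C3H (SD, n = 4 each). In WSB, whose type I-like median was 0.44, Igtp averaged 10.63 ± 0.14 after axotomy and 8.71 ± 0.21 naive, a response of 1.92 against 1.87 in CAST and 1.91 in C3H. Igtp was also called in AJ, DBA, NOD, NZO and 129, between 1.35 and 1.77, and in C57 it was 0.29 (adjusted p = 0.378, limma). Irgm2 followed the same strains, from 1.80 in CAST to 1.00 in AJ, with 0.12 in C57. The promoters of Igtp and Irgm2 both hold a GAS just before an ISRE core. Whether that order has a part in their response was not tested.

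Gbp2 and Gbp3 were less even. Gbp2 rose by 2.26 in CAST, 1.93 in C3H and 1.81 in DBA, and Gbp3 by 2.28 in CAST, 1.60 in WSB, 1.51 in C3H and 1.43 in DBA. In axotomised DBA, Gbp2 was at 10.81, 10.77, 12.82 and 10.65, and in naive DBA at 9.34, 9.47, 9.65 and 9.35. In axotomised C57, Gbp2 was at 10.28, 10.26, 10.33 and 12.39, and in naive C57 at 9.79, 10.45, 10.06 and 10.64. Replicate 3 of DBA and replicate 4 of C57 each stood far above the rest of their group, and axotomised C57 overlapped its naive arrays. Irgm1 was called in 5 strains, from 0.34 in C57 to 0.61 in NOD, and its level was 14.51 ± 0.06 in axotomised CAST and 14.25 ± 0.21 in naive CAST (SD, n = 4 each). Iigp1 did not pass the filter.

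**Figure D2:**
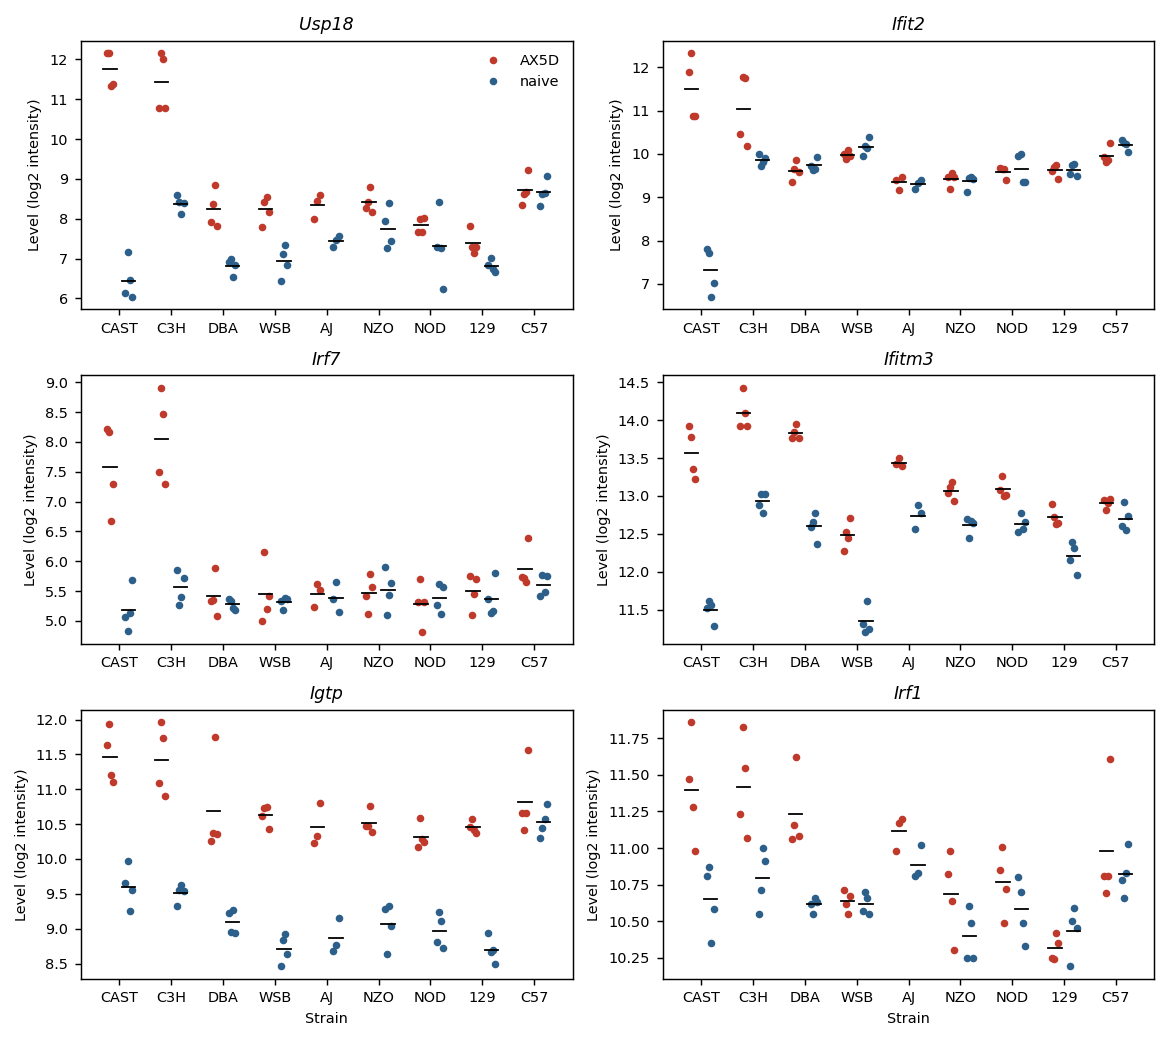
Level (log2 intensity) of Usp18, Ifit2, Irf7, Ifitm3, Igtp and Irf1 on each array, axotomised (left) and naive (right) within each of 9 strains, with a bar at the group mean. Usp18 averages 11.76 in axotomised CAST and 11.43 in axotomised C3H and stays between 7.14 and 9.22 on axotomised arrays of the other strains, while Igtp separates axotomised from naive arrays in most strains.

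Irf1, the transcription factor that both interferons induce, had smaller responses. It was at 11.47, 11.86, 11.28 and 10.98 in axotomised CAST, against 10.81, 10.87, 10.35 and 10.58 in naive CAST. In C3H it was at 11.23, 11.83, 11.55 and 11.07 after axotomy, against 10.55, 10.71, 11 and 10.91 in naive ganglia. The groups did not overlap in either strain, and the responses were 0.75 ± 0.15 SE in CAST (adjusted p = 7.11e-05, limma), 0.63 ± 0.15 in C3H (adjusted p = 0.000927) and 0.61 in DBA. It was not called in the other 6 strains, with WSB at 10.64 ± 0.07 after axotomy and 10.62 ± 0.07 naive (SD, n = 4 each). In WSB the Irf1 response was 0.02, while Igtp and Irgm2 were called higher. Whether Irf1 has a part in the response of these GTPases was not tested.

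Whether strains differed was tested directly. A moderated F-test over the 9 responses called 25 of the 29 members (20 type I-like, 4 GTPases and Irf1), where 16.2% of all genes were called. Among the 25 are the dim genes Irf7, Mx1, Oas2 and Oasl1. They passed the filter mostly through axotomised arrays, so their p-values are no support. The smallest adjusted p was that of Ifit2 (1.2e-18), followed by Ifit3 (3.11e-17), Usp18 (1.16e-16) and Oasl2 (1.7e-16). Irgm1, Rtp4, Trim25 and Zbp1 were not called.

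Against the mean response of the other 8 strains, CAST was higher in 25 members, as were 4.28% of all genes. The differences were 4.25 ± 0.31 SE for Usp18, 4.10 ± 0.24 for Ifit2, 3.30 ± 0.24 for Ifit3 and 3.25 ± 0.29 for Ifi27l2a. For Igtp the difference was 0.39 and was not called. C3H was higher in 11 (0.66%), all type I-like. They included the dim genes Irf7, Oas2 and Oasl1, whose differences are bounds and whose calls are no support. The CAST count includes these and the dim genes Mx1 and Rtp4. Without the dim genes, CAST was higher in 20 of 24 members and C3H in 8 of 24. Among genes measured in both conditions the largest C3H differences were Usp18 (1.71), Isg15 (1.69), Ifit3 (1.65) and Dhx58 (1.62). The C3H count of 11 became 6 without axotomised replicate 2 or 3 and 7 without naive replicate 2. It became 18 when CAST was left out of the mean that C3H is set against (1.29%). Those 18 include the dim genes Irf7, Mx1, Oas2 and Oasl1. C57 was lower in 12 (0.821%), among them Usp18 (-1.67), Igtp (-1.39), Ifi27l2a (-1.37), Isg15 (-1.31) and Irgm2 (-1.27).

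The remaining strains differed less. 129 was lower in 7 (2.07% of all genes), NZO in 4 (1.28%) and NOD in 2 (0.618%). WSB was higher in Gbp3 (0.73), as were 3.58% of all genes. It was lower in 4, Ifit3 (-1.08), Ifit2 (-0.81) and the dim genes Mx1 and Oas2, as were 3.28% of all genes. DBA was higher in Parp14 alone (0.59; 1.34%), and AJ differed in 0 of the 29 by limma (1.4%), with 4 at an unadjusted p below 0.05. Each of these comparisons shares arrays with the others.

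Naive levels differed between strains in 20 of the 29 members by the F-test, where 59.4% of all genes were called. This count was near that share. Here and for axotomised levels, a difference in level between strains cannot be told apart from probe binding. Set against the other 8 strains on average, C57 was higher in 17 (11% of all genes) and lower in 1 (7.87%). It was higher by 1.46 in Igtp, 1.43 in Usp18, 1.23 in Ifi27l2a, 1.07 in Ifit3, 1.05 in Oasl2 and 0.98 in Isg15, and the lower gene was Eif2ak2 (-0.36). Naive C57 Igtp was 10.53 ± 0.21, above the naive means of the other 8 strains, while its axotomised level of 10.82 ± 0.51 (SD, n = 4 each) lay among theirs. A response is the axotomised level minus the naive level, so both C57 results rest on the same 4 naive arrays.

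Naive CAST was lower in 9 members (19% of all genes) and higher in 6 (26%). The count of 6 is not above the share of all genes, and that of 9 is not far above it. By gene, naive CAST was lower in Ifi27l2a (-4.11), Ifit2 (-2.43), Oasl2 (-1.60), Bst2 (-1.20) and Usp18 (-1.07), and higher in Mx2 (4.11), Dhx58 (1.47) and Gbp3 (0.90). NZO was higher in Ifi27l2a (3.44) and Rsad2 (1.2) and lower in Mx2 (-1.63). WSB was lower in Gbp3 (-2.14) and Ifitm3 (-1.14).

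**Figure D3:**
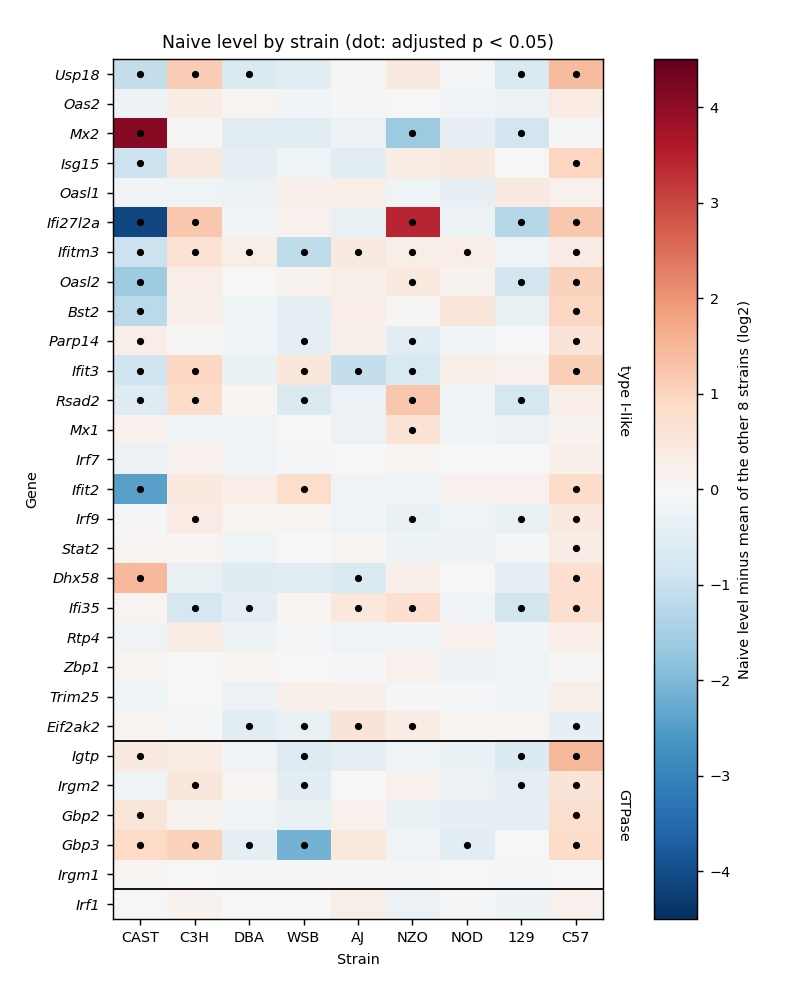
Heat map of the naive level of each strain minus the mean of the other 8 (log2, colour) for the 29 measured genes, with a dot where the adjusted p is below 0.05. C57 is red in 17 called genes, CAST is blue for Ifi27l2a (-4.11) and red for Mx2 (4.11), and NZO is red for Ifi27l2a (3.44).

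After axotomy the levels of CAST and C3H stood above the rest. Against the average of the other 8, CAST was higher in 25 members (27.1% of all genes) and lower in Ifi27l2a (-0.86; 20.2%). The differences in level were 5.62 for Mx2, 3.18 for Usp18 and 2.39 for both Ifit3 and Gbp3. C3H was also higher in 25 (9.4%), with Usp18 at 2.81, Ifit3 at 2.57 and Rsad2 at 2.18. Without the 5 dim genes, CAST and C3H were each higher in 20 of 24. 129 was lower in 21 (13.1%), with Usp18 at -1.74 and Oasl2 at -1.69. NOD was lower in 15 (8.54%) and higher in 1 (9.07%), WSB lower in 13 (12.7%), and NZO lower in 11 (8.51%) and higher in 2 (10.9%). AJ was lower in 8 (7.63%) and higher in 1 (9.03%), DBA lower in 7 (9.24%) and higher in 3 (11.9%), and C57 lower in 5 (9.16%).

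Single arrays show how far groups separate. All axotomised arrays of CAST lay above all its naive arrays in 26 members (12.9% of all genes), and in C3H in 23 (11.2%). The number was 16 in DBA (16.3%), 16 in AJ (16.7%), 14 in WSB (16.6%), 11 in NOD (11.1%), 10 in NZO (15.2%), 8 in 129 (13.9%) and 2 in C57 (11.2%). Mx1 and Mx2 were the 2 members in which all axotomised CAST arrays lay above every axotomised array of the other 8 strains. A count of 2 of 29 cannot be told apart from the share of all genes, 5.15%. Mx1 passed the filter mostly through axotomised arrays, and Mx2 was already higher in naive CAST. C3H had 0 such members (0.229% of all genes).

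The axotomised replicates of the responding strains were themselves uneven. The median SD over members was 0.51 in axotomised C3H, where the median gene had 0.21, 0.38 in axotomised CAST (0.18 for the median gene) and 0.33 in axotomised DBA (0.18). In the other 15 groups it was 0.16 to 0.25. In CAST, replicates 1 and 2 were the highest pair in 26 of 29 members, as for 19.8% of all genes, and in C3H replicates 2 and 3 were the highest pair in 23 of 29 (24.8%). The same arrays were thus the highest for most members. SE and p-values rest on a spread shared by all groups, so those for C3H, CAST and DBA are likely too small for many members.

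Each array was given a score: the mean, over the genes of a subset, of the level minus the mean of that gene over all arrays. The type I-like score was 1.21 to 2.07 on the 4 axotomised CAST arrays, 0.83 to 1.82 in axotomised C3H and -0.41 to 0.42 on the other axotomised arrays, against -0.80 to 0.26 on all naive arrays. The GTPase score was 1.2 to 1.80 in axotomised CAST, 0.88 to 1.63 in C3H and 0.36 to 1.49 in DBA, against -1.17 to 0.33 on naive arrays. In axotomised DBA 1 array, replicate 3, held the score of 1.49, and in axotomised C57 replicate 4 was at 1.08 where the others were at 0.06 to 0.19. Replicate 3 of DBA was the highest of its group in 19 of 29 members (20.1% of all genes), and replicate 4 of C57 also in 19 (33.3%). Without replicate 3, DBA had 16 members called, against 17 with it.

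**Figure D4:**
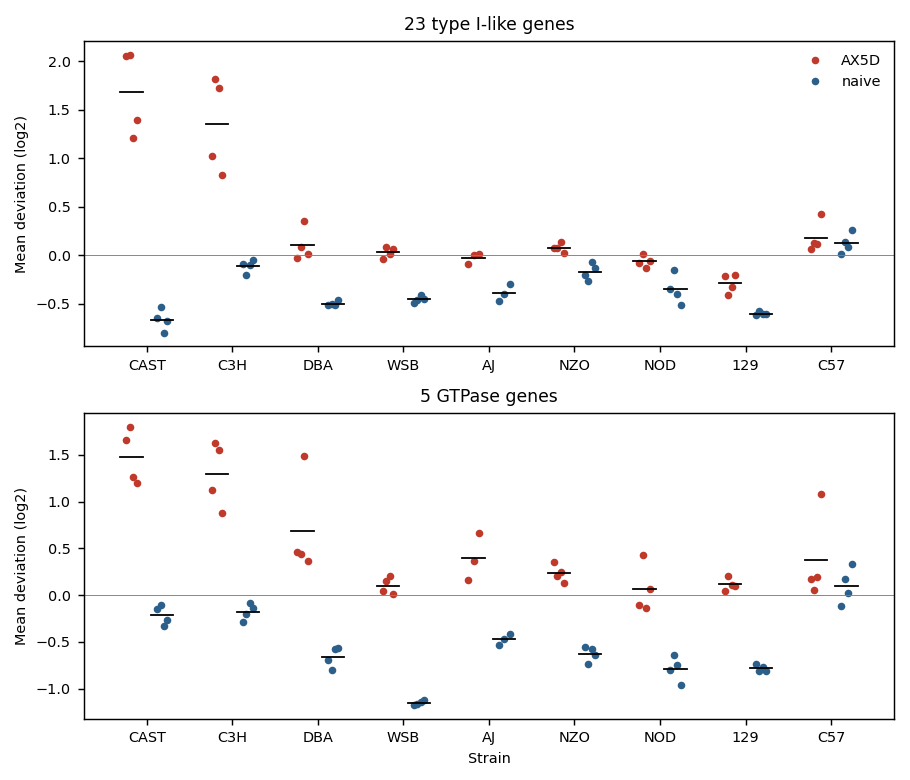
Mean deviation (log2) of the 23 type I-like genes (top) and 5 GTPases (bottom) on each array, axotomised left of naive in each strain, with a bar at the group mean. Axotomised CAST (1.21 to 2.07) and C3H (0.83 to 1.82) stand apart for the type I-like genes, while for the GTPases DBA has 1 array at 1.49 and C57 has 1 at 1.08.

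**Figure D5:**
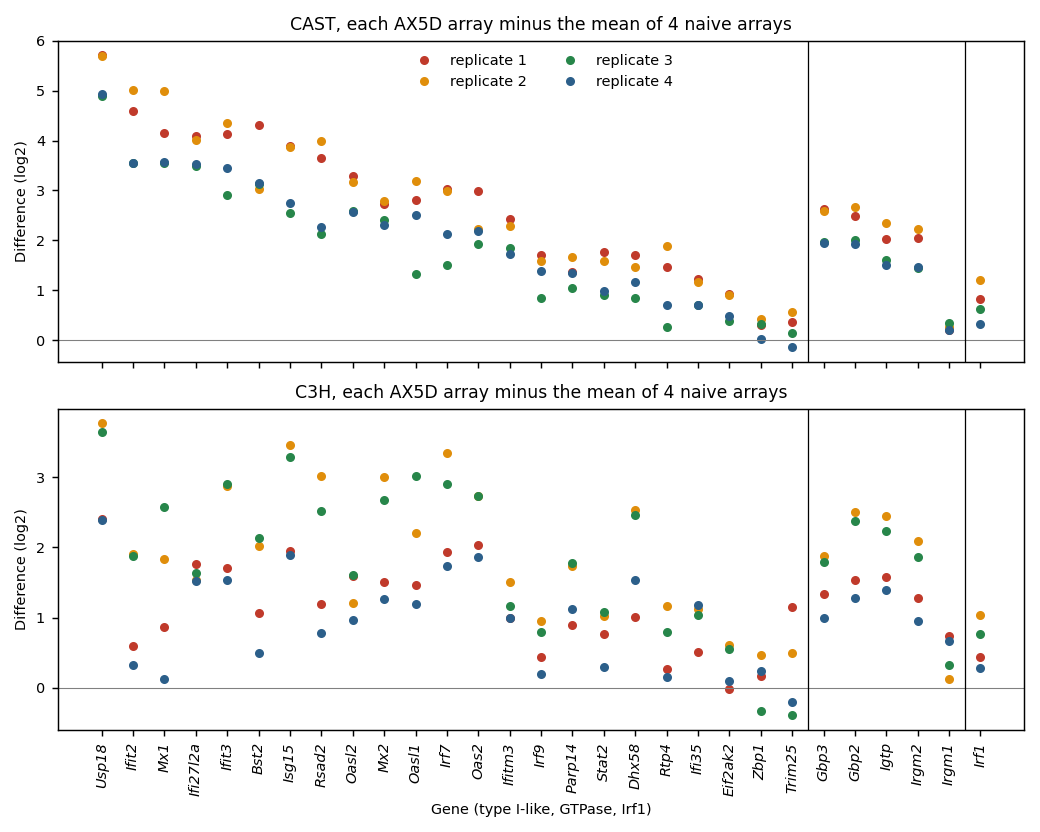
Each axotomised array of CAST (top) and C3H (bottom) minus the mean of the 4 naive arrays of its strain (log2), for the 29 measured genes in the order type I-like, GTPase and Irf1. Replicates 1 and 2 are the highest pair of CAST in 26 genes and replicates 2 and 3 the highest pair of C3H in 23.

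Some genes had several probes, of which the brightest was read. For Usp18 the probes gave CAST responses of 5.31, 5.46 and 3.79, and for Ifit3 3.72, 3.89 and 3.97. Ifit2 differed, with 4.18 and 1.77 in CAST, and for the second probe the mean over strains (0.15, adjusted p = 0.105, limma) was not called. The Irgm1 probes disagreed most: the brighter probe gave 0.26 in CAST and 0.46 in C3H, and the other, above background on all 70 arrays, gave 2.42 and 1.85. In a fit of all kept probes, the strain difference in the Irgm1 response was called by that second probe (adjusted p = 9.9e-05, limma) and not by the first (0.718). A second Gbp2 probe, above background on 9 arrays, gave 0.11 in CAST and 1.53 in C3H.

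Genes that act before these in the pathway were read on the same arrays. For their counts on average over strains, 61.7% of all genes were called in either direction and 28.1% were called higher. Of 19 interferon genes listed, 6 passed the filter and 1 was called on average (Ifna6, 0.17, adjusted p = 0.00558, limma); their median response was 0.04 in CAST and 0.20 in C3H. Ifnb1 and Ifng did not pass it. Of 9 receptors, kinases and STATs measured, 6 were higher and 1 lower on average: Jak2 (0.62), Ifnar2 (0.39), Il10rb (0.35), Stat3 (0.16), Ifngr2 (0.14) and Tyk2 (0.11) were higher, and Ifnlr1 (-0.29) was lower. Jak1 (-0.11) and Ifngr1 (-0.02) were not called. In CAST, Jak2 (0.63) and Ifnar2 (0.44) were called.

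Of 13 sensors, adaptors and interferon regulatory factors outside the list, 7 were higher and 2 lower on average, near the 61.7% of all genes called in either direction. In CAST, 2 had a larger response (4.28% of all genes), Irf5 (1.30) and Ddx58 (0.83), the gene of RIG-I. Of 6 negative regulators, Socs3 (1.91), Ptpn6 (1.21) and Ptpn1 (0.93) were higher on average and 2 were lower, beside the same share of all genes called in either direction. Of 7 other interferon-inducible GTPases measured, 6 were higher in CAST (median 1.38) and 6 in C3H (1.34), against 1 in C57 (0.14). Among them Gvin1 rose by 2.68 in CAST and Ifi47 by 2.71. Of 22 other interferon-stimulated genes, 18 were higher in CAST (median 1.10), 13 in C3H (0.59) and 3 in C57, where 2 were lower (0.02), and 14 had a larger response in CAST than the others had on average. The leading ones in CAST included the oligoadenylate synthetase Oas1g (3.03) and Uba7, the enzyme that activates ISG15 (1.69). The shares of all genes called higher were 14.4% in CAST, 12.8% in C3H and 10.8% in C57.

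Macrophage markers were higher in every strain, 14 to 16 of 16 measured, where 10.3% to 18.4% of all genes were called higher. All 16 of 16 measured were higher in CAST (median 2.49), C3H (2.35) and C57 (2.04). Their score was 1.28 to 1.48 in axotomised CAST, 1.13 to 1.34 in C3H, 1.34 to 1.59 in WSB and 0.70 to 1.06 in C57, and -1.69 to -0.61 on naive arrays. WSB, with the highest macrophage score, had a type I-like median of 0.44. The response of CAST differed from that of the other strains in 6 of 16 markers upward (4.28% of all genes) and 2 downward. Of 14 T and NK cell markers 7 passed the filter, and Cd8a, Gzma, Gzmb and Ncr1 did not. Of the 7, Ccl5 alone was called in CAST (4.00) and in C3H (3.03), while Cd3e, the T cell receptor subunit, was at 0.39 in CAST (adjusted p = 0.282, limma) and 0.00 in C3H. The T and NK score was 0.58 to 0.88 in axotomised CAST, 0.30 to 0.47 in axotomised C3H, -0.21 to 0.54 on other axotomised arrays and -0.35 to 0.12 on naive arrays. Ccl5 weighs heavily in this mean of 7 genes, whose median response was 0.39 in CAST and 0.05 in C3H. The median response of 9 neutrophil markers was -0.04 in CAST and 0.71 in C3H, that of 4 B cell markers 0.02 and 0.00, that of 4 satellite glia and Schwann cell markers -0.46 and 0.02, and that of 3 plasmacytoid dendritic cell markers -0.10 and -0.09. The part of these cells in the response was not tested.

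The intensity table runs in 9 stretches of 8 neighbouring columns, and arrays of 1 stretch were slightly more alike (mean correlation of deviations 0.14, against -0.02 between stretches). Within each of the 9 stretches the type I-like score of axotomised minus naive arrays was above 0, at 0.04 to 1.54, and that of the GTPases was 0.48 to 1.85. In the 4 stretches with axotomised arrays of CAST and of other strains, CAST was higher by 0.82 to 2.17 in the type I-like score and by 0.61 to 1.60 in the GTPase score. In the 3 stretches with axotomised C3H and others apart from CAST, C3H was higher by 0.83 to 1.74 and by 0.66 to 1.43. Naive CAST minus the other naive arrays of its stretch was -0.40 to -0.16 in the type I-like score and 0.14 to 0.61 in the GTPase score.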

How the data were processed

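The members and all gene lists were chosen with earlier results of these data known. The deposited table held raw probe intensities with detection p-values from Illumina arrays hybridised with biotinylated cRNA, per the labels. The authors' matrix held quantile-normalised log2 values of the same arrays (7.64 to 15.5), which set against the intensities showed no background correction. The array software and genome build were not given in the sources used here. All 70 labelled arrays were used. Another 2 columns, AJ arrays that the series design calls technical outliers, had no labelled sample and were left out.

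Intensities were corrected in limma 3.58.1 (R 4.3.3) with nec, which estimates background from the detection p-values (offset 16), quantile-normalised and put on the log2 scale. Probes with a detection p-value below 0.05 on at least 3 arrays were kept (17616 of 25697, 16568 with a symbol), and each gene was read by its brightest probe, giving 11815 genes (3261 had several). Gene symbols came from GEO's platform annotation, updated through RefSeq. One linear model with a mean for each of 18 groups was fitted to all arrays with moderated variances and a mean-variance trend (52 residual degrees of freedom), and p-values were adjusted by Benjamini-Hochberg over all genes. Contrasts were axotomised minus naive, each strain against the mean of the other 8, and F-tests over strains. The script was tested on simulated data. With 3 or 4 arrays per group, the number of arrays limits precision. Whether strain sequence differences change probe binding was not tested, so a level between strains cannot be told apart from probe binding.

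Levels are given in full for the 8 members with the smallest p in the F-test of the response, the 4 with the smallest in that of the naive level, and Irf1, Irf7, Irf9 and Stat2. Of other lists, counts and up to 4 genes by smallest adjusted p are given, and any receptor, kinase or STAT; array values of Oas2 and Gbp2, the probes of Irgm1 and the T cell markers were added after their values were seen. Same-numbered arrays of a strain deviated together little (34 correlations of -0.19 to 0.39, median 0.03), so replicate numbers were not used as pairs. No pair of arrays was identical (highest rank correlation 0.9608). Promoter windows were read from RefSeq. Alternatives covered background correction, the authors' matrix, scaling, filters, probes, array weights, blocks, left-out strains and left-out arrays.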

Additional observations from a re-analysis of the deposited data

Results flagged for a closer look

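An array stood apart from the rest of its group in 21 of 240 groups tested, over the members described by array and the scores; chance gives about 1 in 20. On the GTPase score, axotomised C57 replicate 4 was at 1.08 with the nearest other at 0.19, and axotomised DBA replicate 3 at 1.49 with the nearest at 0.46. The same C57 array was high in Isg15 (8.7, nearest 7.98), Irf1 (11.61, nearest 10.81) and Irf7 (6.39, nearest 5.73), and the same DBA array in Irf1 (11.62, nearest 11.16).

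Among other axotomised arrays, Ifit2 was low in NOD replicate 4 (9.40, nearest 9.64), Ifit3 in WSB replicate 1 (9.96, nearest 10.23) and Irf9 in NOD replicate 3 (9.26, nearest 9.48), and Ifi27l2a was high in NOD replicate 2 (10.32, nearest 9.66). Naive arrays stood low in Ifit2 in NZO replicate 1 (9.13), Oasl2 in WSB replicate 3 (10.21), Mx1 in DBA replicate 3 (4.87, not above background), Ifitm3 in NZO replicate 2 (12.44), Isg15 in 129 replicate 1 (6.85) and C3H replicate 1 (6.94), and Mx2 in DBA replicate 1 (6.05). Naive arrays stood high in Oasl2 in DBA replicate 4 (10.70), NOD replicate 1 (10.71) and NZO replicate 2 (11.05), and Stat2 in WSB replicate 4 (9.22).

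The axotomy response differed between strains in 25 members by limma's F-test. The adjusted p was 1.2e-18 for Ifit2, 3.11e-17 for Ifit3, 1.16e-16 for Usp18, 1.7e-16 for Oasl2, 5.3e-15 for Mx1, 7.97e-15 for Ifitm3, 1.85e-12 for Ifi27l2a, 2.04e-10 for Isg15 and 2.75e-10 for Irf7. It was 3.77e-09 for Gbp3, 4.11e-09 for Rsad2, 1.13e-08 for Bst2, 1.09e-06 for Parp14, 4.12e-06 for Mx2, 1.15e-05 for Oas2, 1.76e-05 for Irgm2 and 2.03e-05 for Eif2ak2. It was 4.49e-05 for Oasl1, 4.93e-05 for Stat2, 5.92e-05 for Dhx58, 6.64e-05 for Irf9, 0.000533 for Igtp, 0.00101 for Ifi35, 0.00226 for Gbp2 and 0.0135 for Irf1. Irf7, Mx1, Oas2 and Oasl1 passed the filter mostly through axotomised arrays.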

How the results depend on the processing

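No called result turned direction among those compared gene by gene. These were the mean response, the responses within CAST and C3H, and those of CAST, C3H and C57 against the others. The naive levels of CAST and C57 were compared too. Direction by gene was not compared for responses within the other strains, for axotomised levels or with 1 array left out. Without background correction, and in the authors' matrix, the type I-like medians were smaller: 0.37 over strains (0.66 in the main setting), 1.08 in CAST (2.41) and 0.80 in C3H (1.39), and the GTPase median in CAST was 1.59 (1.87), with the same counts of calls within 1.5 times. In both settings the GTPase median in CAST was above the type I-like median, the reverse of the main setting. With no filter the CAST type I-like median was 1.73, over 28 genes. The number called in C57, 2, was 1 with median scaling, with no filter and with a detection p below 0.01 on at least 35 arrays. Under that last filter C3H differed from the other strains in 7 of 22 members, and without CAST in the mean in 18, against 11. In AJ 7 members were called, but 11 with array weights, 12 with the column stretch as a random block and 13 with the arrays of AJ alone. Without strain CAST the type I-like median over strains was 0.39. With 1 array left out at a time, AJ had 4 to 10 (4 without naive replicate 2 or axotomised replicate 4), C57 had 1 to 2 (1 without naive replicate 1 or 3 or axotomised replicate 1, 2 or 3), and C3H against the others 6 to 13. The replicate block changed none of 25 main results, with 26 members called over strains. The cause of these shifts was not tested, except that fewer members were tested under the strict filter. The comparison of C3H with the strains other than CAST, and the counts and medians without 5 dim genes, were added after seeing the data. Dim probes (Irf7, Mx1, Oas2, Oasl1, Rtp4) give bounds in most groups, and Bst2 and Ifi27l2a were above background on 1 and 2 of 4 naive CAST arrays.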
